A study of Arabidopsis thaliana with 48 samples.

Results

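The UDP-glycosyltransferases named UGT, an enzyme family of Arabidopsis thaliana, were followed in guard cells and leaves. Members were the genes whose symbol begins with UGT and a digit and whose probe set (a group of short probes read as 1 value) is tied to that gene alone. Of 58 such symbols, 47 had a probe set of their own, out of 13356 genes measured in this way. The family rests on the annotation's symbols and was not checked by sequence. Another 4 symbols lay on 3 probe sets shared with a second gene, and 7 had no listed probe set.

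The study hybridised 48 arrays, 3 for each of 16 groups. They were guard cells or whole leaves of 4 genotypes, all in the Columbia (Col-0) background, namely the agb1-2 mutant, the gpa1-4 mutant, the agb1-2 gpa1-4 double mutant and wild type (WT), given abscisic acid (ABA) or its solvent ethanol (EtOH). AGB1 and GPA1 are the beta and alpha subunits of the heterotrimeric G protein. Plants were 5 weeks old and grown in 8 h of light and 16 h of darkness. The treatment was 50 µM ABA, or the solvent, for 3 h. Each guard cell array pooled 300 leaves of 60 to 70 plants, and each leaf sample pooled 10 mature leaves of 3 to 4 plants. The labels differ on whether excised leaves or isolated guard cells were incubated for the guard cell arrays. None of 4 G protein subunit genes had a named probe set, so the mutated genes could not be checked on these arrays.

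UDP-glycosyltransferases move a sugar from a UDP-sugar donor onto small acceptors, and the plant enzymes act on hormones, flavonoids, lignin precursors, glucosinolate precursors and foreign compounds. A glycosylated hormone is usually inactive and can be stored in the vacuole. UGT71B6, UGT71B8 and UGT71C5 form the glucose ester of ABA, the hormone that closes stomata, and UGT73B5 and its neighbour UGT73B4 act on foreign compounds and in responses to oxidative stress and pathogens.

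Values are log2 levels normalised by the submitters with RMA, and a difference of 1 is a doubling. A probe set was called higher or lower where limma's adjusted p was under 0.05, with Benjamini-Hochberg adjustment over 22746 probe sets. Levels were compared between groups of 1 probe set and not between probe sets. The p-values measure the spread between arrays that the labels give as independent biological replicates.

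Array medians ran between 5.05 and 5.38, and the lowest correlation between arrays of a group was 0.963. Of 14 listed guard cell markers 2 were measured, and in WT with EtOH only FMA separated the sample types. FMA, a guard cell transcription factor, was higher in guard cells by 5.05 on the log2 scale, and MUTE, an earlier stomatal factor, was not called at -0.24. All 5 measured mesophyll markers were lower in guard cells. Their mean level per array lay between 8.97 and 10.02 in WT guard cells and between 11.96 and 12.50 in WT leaves. The only measured vascular marker, the sugar transporter SWEET11, was lower in guard cells by a log2 difference of -6.32, and no epidermis marker was measured. In such bulk samples, fewer cells of a type and less RNA per cell cannot be told apart.

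The members varied widely in how far their level moved over the 16 groups. The span between the highest and the lowest group mean ran from 0.34 to 6.39 on the log2 scale, with a median of 1.18. It reached 1 in 29 members and 3 in 11 members. The highest group mean lay in a guard cell group for 22 members and in a leaf group for 25 members. A level of 6 or more on at least 3 arrays was reached by 26 members, and the 21 others, whose largest span was 1.73, stayed in every count below.

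**Figure D1:**
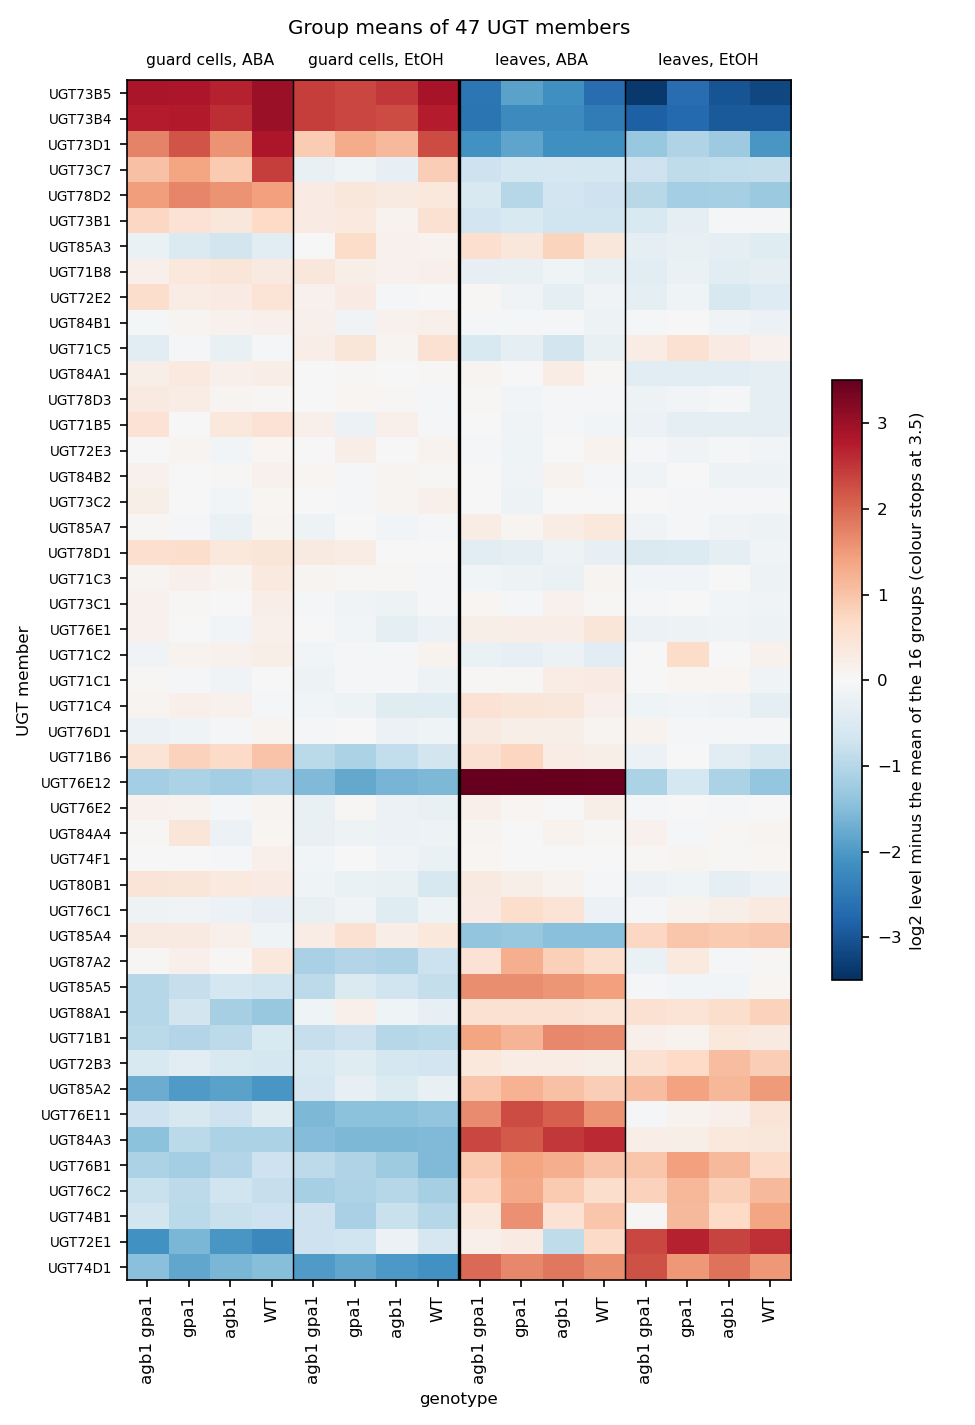
Group means of the 47 members (rows) in the 16 groups (columns), as the log2 level minus the member's own mean over the groups; red is above and blue below that mean, and the colour stops at 3.5. The rows follow the difference between WT guard cells and WT leaves, and the top rows (UGT73B5, UGT73B4, UGT73D1) stand out in every guard cell group while UGT76E12 stands out in the leaf groups given ABA.

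The comparison of guard cells with leaves asked which members differ between this cell type and the whole organ. Guard cell arrays came from cells isolated from large leaf pools, and leaf arrays from whole leaves of smaller pools. Effects of cell type, isolation and pooling therefore cannot be told apart in any difference between the sample types. In WT with EtOH, 8 members were higher in guard cells and 15 were lower. The background over all probe sets was 20% higher and 22.2% lower. The median difference was -0.06 over the members and 0.04 over all probe sets. The number of members with an unadjusted p under 0.05 was 26, beside 10797 of all 22746 probe sets. Of the 7 members of the UGT73 number series, 4 were higher and none was lower. All 3 UGT74 members were lower, as were 3 of 8 UGT76 members, against none higher in either series. Of these, UGT74F1 had both groups below every array median. With each array centred on its own median, which moved the median of all probe sets to 0.25, the members' split was 17 higher and 12 lower, beside 35.6% and 18.1% of all probe sets.

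UGT73B5 and UGT73B4 had the largest differences of the family. UGT73B5 stood at 11.71, 12.01 and 12.45 in WT guard cells with EtOH, against 6.24, 6.35 and 5.35 in WT leaves. UGT73B4 stood at 9.03, 8.80 and 9.96 in WT guard cells, against 3.67, 3.37 and 3.66 in WT leaves. For both genes the lowest guard cell array lay far above the highest leaf array. The log2 difference was 6.08 for UGT73B5 (SE 0.333, adjusted p = 3.35e-17), a 67.5-fold higher level in guard cells. For UGT73B4 it was 5.70 (SE 0.259, adjusted p = 2.00e-19). The leaf arrays of UGT73B4 lay below the median of every array, and the deposited values carry no detection calls. Such a level was not shown to be above background, although the array median is no detection limit. Differences from such a level may therefore be understated in size. The same applies to every other gene whose lower group alone lay below every array median. Between the sample types in WT with EtOH these included UGT76C2, UGT76B1, UGT76E11 and UGT84A3 in guard cells and UGT73C7 in leaves. In agb1, gpa1 and the double mutant the difference was 5.51, 5.01 and 5.80 for UGT73B5 and 5.23, 5.06 and 5.27 for UGT73B4. The other 2 members listed for foreign compounds and redox stress, UGT73C1 and UGT73C2, were not called. The shared probe set of UGT73B2 and UGT73B3, which reads the next relatives without telling them apart, was higher by 6.65 (SE 0.32, adjusted p = 9.07e-19). It averaged 13.08 ± 0.20 in WT guard cells and 6.43 ± 0.36 in WT leaves (SD, n = 3 each).

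UGT73D1 and UGT73C7 lie next to each other in the genome and were also higher in WT guard cells. UGT73C7, which acts on phenylpropanoid acids in plant immunity, had a log2 difference of 1.69 (SE 0.27, adjusted p = 2.57e-06). UGT73D1 stood at 9.36, 8.55 and 9.90 in WT guard cells with EtOH, against 4.50, 6.03 and 4.36 in WT leaves, with no overlap. Its log2 difference was 2.42, 2.36 and 2.23 in agb1, gpa1 and the double mutant, and 4.30 in WT (SE 0.384, adjusted p = 1.14e-11). Among the mutants, UGT73C7 was called in gpa1 (0.73, adjusted p = 0.0263) and not in agb1 (0.58, adjusted p = 0.0903) or the double mutant (0.48, adjusted p = 0.162). Whether these differences between sample types change with genotype was not tested.

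UGT78D2, which adds glucose to the 3 position of flavonols and anthocyanidins, completed the members higher by more than 1 on the log2 scale. It averaged 7.64 ± 0.25 in WT guard cells and 5.98 ± 0.34 in WT leaves, a log2 difference of 1.66 (adjusted p = 6.85e-08). The other 2 flavonoid enzymes, UGT78D1 and UGT78D3, were not called. Of the 3 ABA enzymes 1 was called between the sample types in WT with EtOH. UGT71B8 was higher by 0.49 (adjusted p = 0.023), UGT71C5 had 0.38 (adjusted p = 0.0556) and UGT71B6 had -0.09 (95% interval -0.71 to 0.53, adjusted p = 0.86). UGT71B8 averaged 4.47 in WT guard cells and 3.99 in WT leaves, both below every array median and not shown to be above background. UGT71B6 was lower in guard cells of gpa1 (-1.13, adjusted p = 0.00263) and of the double mutant (-0.75, adjusted p = 0.0452). In the double mutant the call was lost without EtOH guard cell array 2 (-0.57), guard cell array 3 (-0.71) or leaf array 2 (-0.52). UGT71B6 had -0.46 in agb1 (adjusted p = 0.254), and its WT difference changed sign to 0.12 with median centring.

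Some members that act on cytokinin, defence signals, glucosinolates and lignin precursors were among those lower in guard cells, while the 3 auxin members split. UGT74D1, which glucosylates auxins, stood at 3.74, 3.61 and 3.74 in WT guard cells with EtOH, against 7.06, 6.87 and 8.08 in WT leaves. Its arrays did not overlap, and the log2 difference was -3.64 (SE 0.314, adjusted p = 5.13e-12). The guard cell arrays lay below every array median, so this difference may be understated in size. UGT84B1, which also acts on auxin, was higher in guard cells by 0.40 (adjusted p = 0.0246), and UGT84B2 was not called. UGT84B1 averaged 4.02 in WT guard cells and 3.62 in WT leaves, both below every array median and not shown to be above background. UGT72E1, which acts on coniferyl and sinapyl aldehydes, the lignin precursors, stood at 6.70, 5.26 and 6.37 in WT guard cells, against 9.54, 9.71 and 8.52 in WT leaves. Its log2 difference was -3.15 (SE 0.503, adjusted p = 2.47e-06). UGT84A3, which acts on hydroxycinnamic acids, had -1.93 (adjusted p = 5.39e-05), and the other 4 of the 6 members of this role were not called.

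UGT74B1 catalyses the glucosylation step in the core of glucosinolate synthesis. It averaged 6.25 ± 0.17 in WT guard cells and 8.61 ± 0.90 in WT leaves, a log2 difference of -2.37 (adjusted p = 2.21e-06). UGT76C2, which inactivates cytokinins by N-glucosylation, averaged 4.91 ± 0.08 in WT guard cells and 7.22 ± 0.42 in WT leaves. Its log2 difference was -2.31 (adjusted p = 6.92e-11), while UGT76C1, the other cytokinin enzyme, was not called. UGT76B1, which acts on isoleucic acid, salicylate and N-hydroxypipecolate, had -2.23 (adjusted p = 0.00212). The salicylate enzyme UGT74F1 had -0.32 (adjusted p = 0.0313), with both groups below every array median. Among members without a listed role, UGT76E11 had -1.82 (adjusted p = 6.58e-06) and UGT85A2 had -1.77 (adjusted p = 2.09e-06). The lower mesophyll and vascular marker levels of guard cell arrays moved with these differences, and their part in the result was not tested.

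The sample types were also compared in each mutant. In agb1, gpa1 and the double mutant 20, 21 and 21 members were called with EtOH, beside 39.7%, 42.4% and 44.1% of all probe sets in either direction. Across the 4 genotypes, 5 members were higher in guard cells in every one (UGT71B8, UGT73B4, UGT73B5, UGT73D1, UGT78D2). Another 9 were lower in every one (UGT72B3, UGT72E1, UGT74D1, UGT76B1, UGT76C2, UGT76E11, UGT84A3, UGT85A2, UGT87A2). No member was called in opposite directions and 16 were called in none. Of all probe sets, 13.7% were higher in every genotype, 15% lower in every one and 41.8% called in none. UGT74B1 had -1.49 in agb1 (adjusted p = 0.0014) and -2.25 in gpa1 (adjusted p = 5.38e-06), and -0.77 in the double mutant, where it was not called (adjusted p = 0.0984). Leaving out EtOH leaf array 1 moved UGT76B1 in agb1 to -1.59, beside -2.39 with all arrays, and ended its call in the double mutant (-1.31, beside -1.89).

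**Figure D2:**
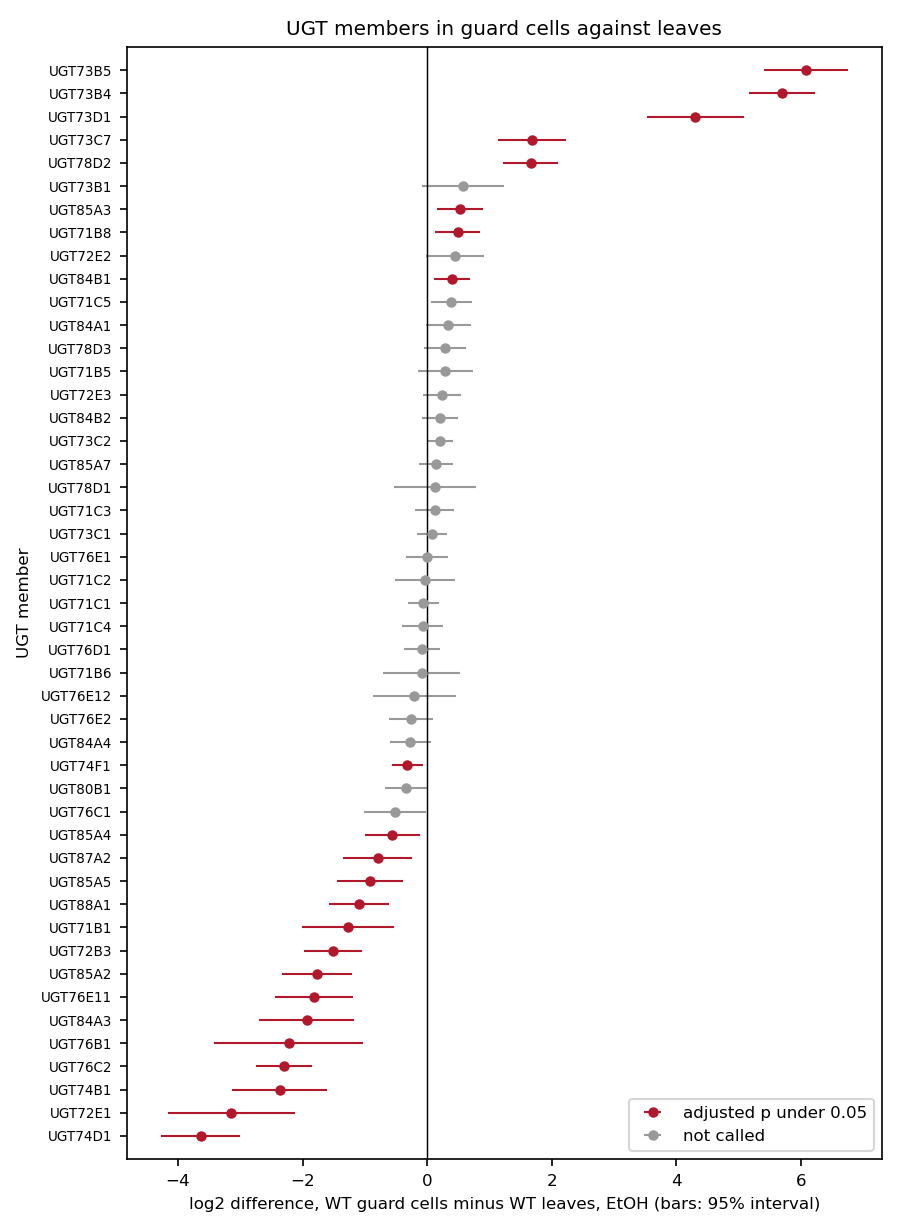
Log2 difference of WT guard cells minus WT leaves with EtOH for each of the 47 members (rows); points are limma estimates, bars are 95% intervals, and red marks an adjusted p under 0.05. UGT73B5, UGT73B4 and UGT73D1 lie above 4 while UGT74D1 and UGT72E1 lie below -3.

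With ABA the contrast between the sample types in WT held 13 members higher and 15 lower in guard cells, beside 26% and 23.2% of all probe sets. Over the contrasts with ABA and with EtOH, 7 members were higher in both and 12 were lower in both. UGT85A3 was lower in guard cells with ABA (-0.79) and higher with EtOH (0.53), and UGT85A4 was higher with ABA (1.31) and lower with EtOH (-0.56). UGT73C7 was 3.04 higher in guard cells with ABA (adjusted p = 8.67e-12) and UGT76E12 was lower by a log2 difference of -4.54 (adjusted p = 4.66e-14), where it had not been called with EtOH. UGT73B5 had 5.69 with ABA (adjusted p = 2.68e-16). UGT71B6 was called higher in guard cells with ABA (0.80, adjusted p = 0.0288). That call was lost without guard cell array 2 (0.75), guard cell array 3 (0.81) or leaf array 2 of the ABA arrays, the last giving 0.40 (adjusted p = 0.32).

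ABA against EtOH asked which members respond to the hormone. In guard cells of agb1 7 members rose and 4 fell, beside 7.26% and 8.44% of all probe sets. In gpa1 9 rose and 4 fell (8.67% and 11.4% of all probe sets), and in the double mutant 6 rose and 3 fell (7.26% and 8.99%). In WT guard cells 9 members rose and 4 fell, beside 8.55% and 11.6% of all probe sets. An unadjusted p under 0.05 was held by 22 members there, and by 7058 of all 22746 probe sets. The WT median difference was 0.28 over the members and 0.03 over all probe sets. UGT71B6, UGT73C7, UGT78D2, UGT80B1 and UGT87A2 rose in all 4 genotypes, and UGT85A2 and UGT88A1 fell in all 4, beside 5.39% and 5.86% of all probe sets.

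UGT71B6 stood at 7.27, 6.73 and 6.91 in agb1 guard cells with ABA, against 5.75, 4.66 and 5.88 with EtOH. In gpa1 it stood at 7.51, 6.90 and 6.88 with ABA, against 5.13, 5.22 and 5.21 with EtOH. The double mutant had 6.86, 6.58 and 6.86 with ABA, against 5.77, 5.0 and 5.28 with EtOH. In none of these mutants did the ABA arrays overlap the EtOH arrays. WT guard cells, at 7.22, 7.40 and 7.27 with ABA, against 5.80, 5.24 and 5.94 with EtOH, likewise did not overlap. The differences were 1.54, 1.91 and 1.42 in agb1, gpa1 and the double mutant (limma adjusted p = 0.000336, 2.63e-05 and 0.000812) and 1.64 in WT (adjusted p = 0.000152). UGT71C5, the other ABA enzyme that moved, fell in gpa1 (-0.45, adjusted p = 0.0379), the double mutant (-0.60, adjusted p = 0.00761) and WT (-0.59, adjusted p = 0.00747). Its call in the double mutant was lost without ABA array 1 (-0.48). It stood at 7.36, 7.64 and 7.87 in WT guard cells with ABA, against 8.14, 8.04 and 8.44 with EtOH. UGT71B8 was called in no ABA comparison, so the 3 ABA enzymes had 1 rise, 1 fall and 1 without a call in WT guard cells.

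UGT73C7 stood at 6.62, 7.73 and 7.56 in WT guard cells with ABA, against 5.48, 5.41 and 6.29 with EtOH, with no overlap. Its rise was 1.20, 1.54 and 1.29 in agb1, gpa1 and the double mutant, and 1.57 in WT (SE 0.349, adjusted p = 0.00266). In agb1 the call was lost without EtOH array 1, 2 or 3 or ABA array 1 or 3 (0.97 to 1.23), and in the double mutant without EtOH array 3 (1.24) or ABA array 3 (0.94). UGT78D2 rose by 1.27, 1.33 and 1.18 in agb1, gpa1 and the double mutant, and by 1.08 in WT (adjusted p = 1.18e-05). UGT87A2, which takes part in the timing of flowering, rose by 1.12, 1.20 and 1.18 in the mutants and by 1.13 in WT (adjusted p = 0.00022). UGT80B1, a sterol glucosyltransferase, rose by 0.61, 0.64 and 0.62 in the mutants and by 0.83 in WT (adjusted p = 0.000334).

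UGT85A2 had the largest fall in WT guard cells. It stood at 5.95, 6.11 and 5.75 with ABA, against 7.71, 7.52 and 7.88 with EtOH. The groups did not overlap. The difference was -1.39, -1.68 and -1.15 in agb1, gpa1 and the double mutant, and -1.77 in WT (SE 0.28, adjusted p = 0.000104). UGT88A1 fell by 1.02, 0.80 and 0.86 on the log2 scale in the mutants and by 1.04 in WT (adjusted p = 0.000684). UGT72E1 fell by 1.85 in agb1 (adjusted p = 0.017) and by 1.67 in WT (adjusted p = 0.0264). Its WT call was lost without EtOH array 1 (-1.37), EtOH array 3 (-1.53), ABA array 1 (-1.66) or ABA array 2 (-1.49). Its agb1 call was lost without EtOH array 1 (-1.71), EtOH array 3 (-1.39) or ABA array 2 (-1.40).

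The remaining rises in WT guard cells were smaller. UGT76E11 rose by 0.94 (adjusted p = 0.0231) and UGT76B1 by 0.82 (adjusted p = 0.0258). The UGT76E11 call was lost without EtOH array 1, ABA array 2 or ABA array 3 (each 0.88), and the UGT76B1 call without any 1 of the EtOH arrays, ABA array 2 or ABA array 3 (0.69 to 0.83). UGT74D1 rose by 0.63 and UGT74F1 by 0.43. For UGT76B1, UGT74D1 and UGT74F1 the arrays of both treatments lay below every array median and were not shown to be above background. UGT73B5 had 0.21, 0.48, 0.44 and 0.13 in agb1, gpa1, the double mutant and WT and was not called (adjusted p = 0.602, 0.0912, 0.139 and 0.707). In gpa1 it was called without EtOH array 3 (0.67, adjusted p = 0.0264). Replicate numbers paired the guard cell arrays, and with the replicate number as a block UGT73B5 was called in gpa1 (adjusted p = 0.0399). With the block set within each genotype it was called in gpa1 (adjusted p = 0.00857) and the double mutant (adjusted p = 0.0164).

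Cell type markers moved with ABA too. FMA fell in WT guard cells by 2.44 on the log2 scale, and the mean of the 5 mesophyll markers lay between 7.84 and 9.20 per array with ABA and between 8.97 and 10.02 with EtOH. Their part in the members' responses was not tested. All 4 measured genes of a list of ABA-induced genes, among them the late embryogenesis gene LEA4-5 (4.25), rose in WT guard cells. In WT leaves the arrays of COR15A, LTI30 and LEA4-5 with ABA lay above those with EtOH. Those of COR47 overlapped there, with means of 12.53 with ABA and 12.23 with EtOH.

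In leaves of agb1 8 members rose with ABA and 3 fell, beside 6.93% and 7.59% of all probe sets. In gpa1 6 rose and 4 fell (5.37% and 4.95% of all probe sets), and in the double mutant 6 rose and 3 fell (5.09% and 5.07%). In WT leaves 11 members rose and 2 fell, beside 16.9% and 21.8% of all probe sets. An unadjusted p under 0.05 was held by 22 members there, and by 10619 of all 22746 probe sets. The WT median difference was 0.20 over the members and 0.05 over all probe sets. With median centring the members split 12 to 3 in agb1 (8.63% and 5.63% of all probe sets) and 8 to 3 in the double mutant (6.06% and 3.64%). The centred WT split was 24 rises and 2 falls, beside 40.6% and 16.8% of all probe sets, whose median then stood at 0.31. UGT71C4, UGT76E11, UGT76E12, UGT84A3, UGT85A3 and UGT85A5 rose in leaves of all 4 genotypes, and UGT72E1 and UGT85A4 fell in all 4, beside 3.75% and 2.92% of all probe sets.

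UGT76E12 had the largest response to ABA of the family. It stood at 8.86, 9.58 and 8.06 in WT leaves with ABA, against 4.30, 4.11 and 3.68 with EtOH. No ABA array overlapped an EtOH array. The difference was 5.16, 4.85 and 4.64 in agb1, gpa1 and the double mutant, and 4.80 in WT (SE 0.412, adjusted p = 1.40e-07). The EtOH arrays lay below every array median, so this rise may be understated in size. In guard cells the same probe set stood at 4.32, 4.41 and 4.16 in WT with ABA, against 3.70, 3.95 and 3.83 with EtOH, and was not called there in WT. Its neighbour UGT76E11 rose by 1.92, 2.16 and 1.74 in leaves of the mutants and by 1.13 in WT leaves (adjusted p = 0.00767). UGT76E1, which lies elsewhere and acts on a jasmonate, rose by 0.60 in WT leaves (adjusted p = 0.00997). Without ABA array 1 it had 0.36 and was not called. Its WT leaf arrays of both treatments lay below every array median.

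UGT84A3 stood at 8.70, 8.82 and 7.89 in WT leaves with ABA, against 7.45, 5.96 and 5.37 with EtOH. It rose by 2.11, 1.93 and 2.1 in agb1, gpa1 and the double mutant, and by 2.21 in WT (SE 0.497, adjusted p = 0.00178). The gpa1 call was lost without EtOH array 2 (1.88), ABA array 2 (1.85) or ABA array 3 (1.95), and that of the double mutant without EtOH array 1 (1.83) or ABA array 2 (1.77). Its relatives UGT84A1 and UGT84A4 were not called in WT leaves. UGT85A5 rose by 1.63, 1.71 and 1.68 in the mutants and by 1.37 in WT (adjusted p = 0.00172). UGT85A3 rose by 1.15, 0.67 and 0.92 in the mutants and by 0.81 in WT (adjusted p = 0.000978), and its gpa1 call was lost without EtOH array 1 or ABA array 1 (each 0.63). UGT71C4 rose by 0.52, 0.53 and 0.64 in the mutants and by 0.51 in WT (adjusted p = 0.0129). Its gpa1 call was lost without array 2 or 3 of either treatment (0.39 to 0.54) and its call in the double mutant without ABA array 2 (0.50). UGT71B1 rose by 1.35 in WT leaves (adjusted p = 0.0237), and that call was lost without EtOH array 2 or 3 or ABA array 1 or 2 (1.14 to 1.24).

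UGT85A4 stood at 5.10, 5.07 and 5.11 in WT leaves with ABA, against 7.62, 7.81 and 7.03 with EtOH. It fell by 2.39, 2.29 and 2.11 in agb1, gpa1 and the double mutant, and by 2.39 in WT (SE 0.237, adjusted p = 8.16e-07). UGT72E1 stood at 7.53, 7.56 and 6.99 in WT leaves with ABA, against 9.54, 9.71 and 8.52 with EtOH. It fell by 3.26, 2.40 and 2.16 in the mutants and by 1.90 in WT (adjusted p = 0.00261), and ABA and EtOH arrays did not overlap in any genotype. UGT71C5 fell in leaves of agb1, gpa1 and the double mutant (-0.92, -0.88 and -0.79) and was not called in WT.

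The ABA enzyme UGT71B6 stood at 6.88, 5.69 and 6.92 in WT leaves with ABA, against 5.09, 6.19 and 5.96 with EtOH, so the groups overlapped. Its difference was 0.65, 0.74, 0.75 and 0.75 in agb1, gpa1, the double mutant and WT and was not called (adjusted p = 0.21, 0.187, 0.179 and 0.0747). In WT it was called without EtOH array 2 (0.98, adjusted p = 0.0404), without ABA array 2 (1.16, adjusted p = 0.00717) and with median centring (1.01, adjusted p = 0.0176). UGT73B5 had 0.87, 0.79, 0.85 and 0.52 in leaves of agb1, gpa1, the double mutant and WT and was not called. It was called in the double mutant without EtOH array 2 (1.36, adjusted p = 0.0458). With only the compared arrays UGT71B6 (0.74, adjusted p = 0.0284) and UGT73B5 (0.79, adjusted p = 0.0133) were called in gpa1 leaves. UGT73B4 rose in agb1 leaves by 0.73 (adjusted p = 0.0272), but not with the replicate number as a block within each genotype (adjusted p = 0.0755), where the numbers paired the arrays. The call was also lost without EtOH array 2 (0.55) or ABA array 2 (0.44). In WT leaves with ABA, 4 of 5 mesophyll markers and SWEET11 (-1.24) fell, and mesophyll means lay between 10.06 and 11.14 with ABA and between 11.96 and 12.50 with EtOH. Their part in these responses was not tested.

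**Figure D3:**
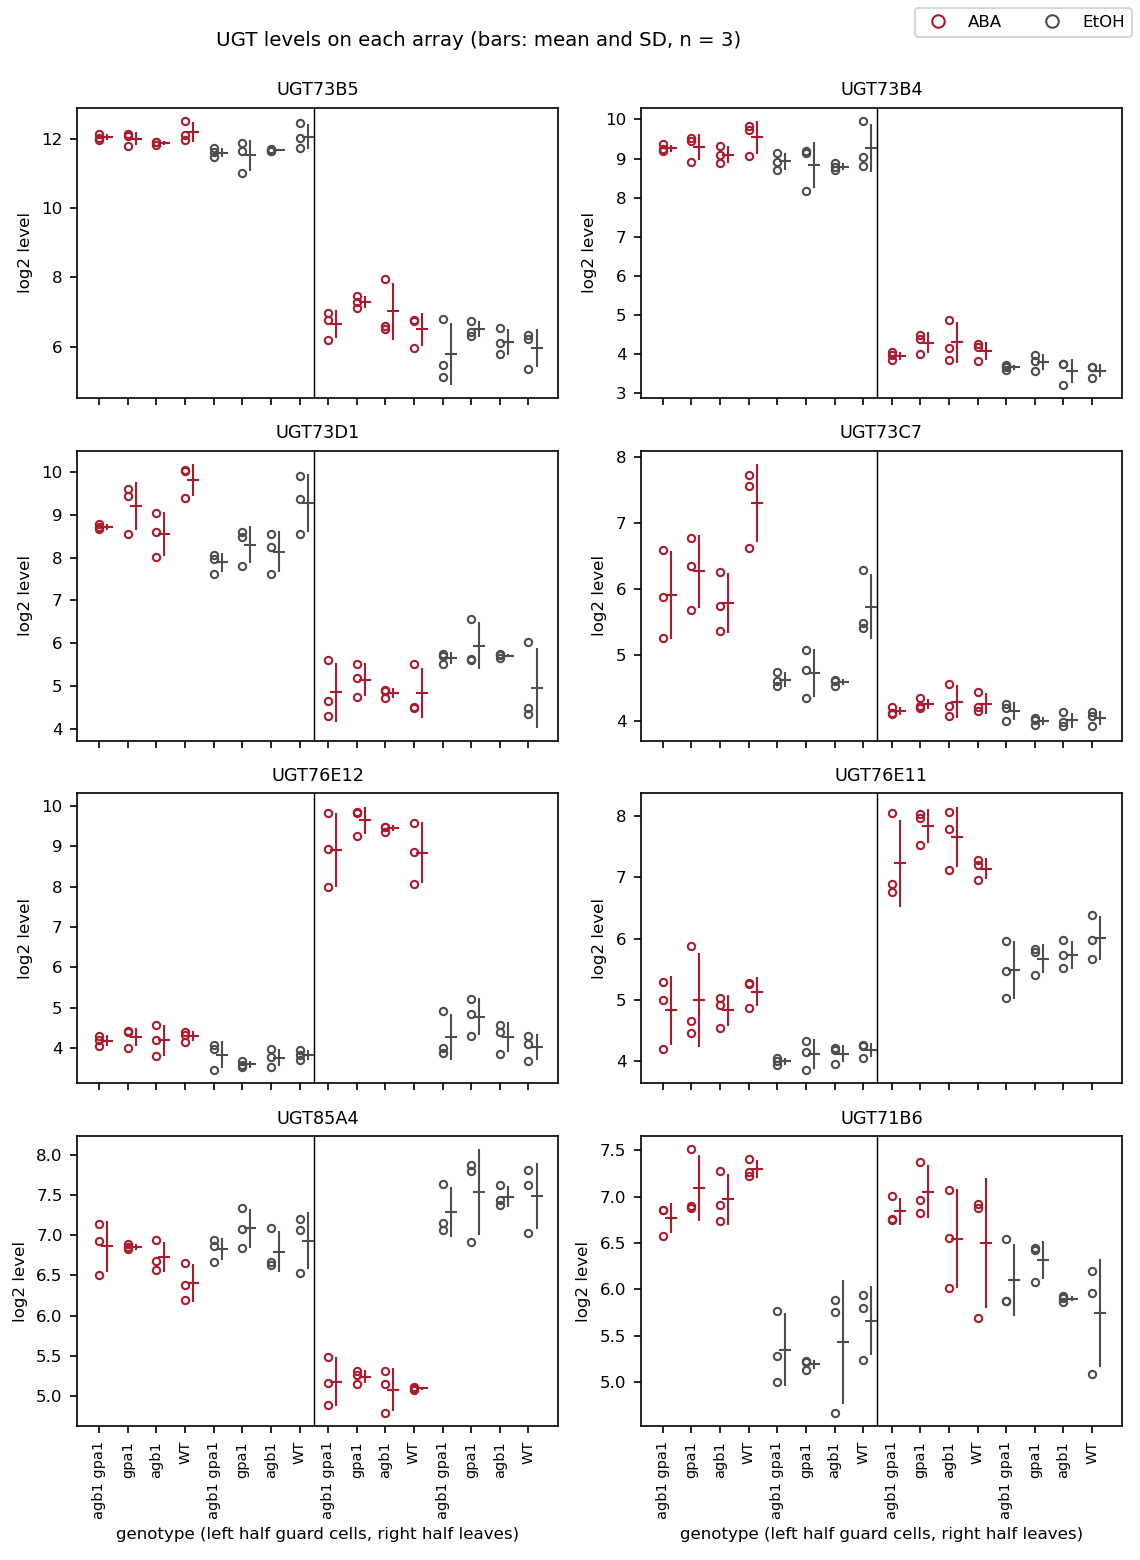
Log2 level on every array for 8 members, with ABA groups (red) left of EtOH groups (grey) and guard cells left of leaves in each panel; bars give the mean and SD of 3 arrays. UGT76E12 lies between 7.98 and 9.86 in leaves with ABA and at or under 5.21 in every other group, and UGT71B6 shows its clearest separation of ABA from EtOH in guard cells.

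Over the 8 ABA comparisons 29 members were called at least once and 18 never. Of all probe sets, 53% were called at least once and 47% never. In guard cells 19 were called in at least 1 genotype and in leaves 17, with 7 in both, beside 27.5%, 41.8% and 16.3% of all probe sets. UGT85A3 was the only member called in opposite directions (2.91% of all probe sets were), falling in guard cells of agb1 (-0.79) and gpa1 (-1.14) and rising in leaves of every genotype. The agb1 fall was lost without ABA array 1 (-0.62). Over the 47 members, the WT responses of guard cells and leaves had a Pearson correlation of 0.42 and a Spearman correlation of 0.48, as a description across genes that are not independent replicates. Within a sample type, each mutant's responses correlated with those of WT at Pearson values between 0.87 and 0.95, from separate arrays. The Spearman values were lower, between 0.65 (gpa1 guard cells) and 0.85 (agb1 leaves).

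The difference between the guard cell and the leaf response was then tested in WT. In 5 members the guard cell response was higher and in 5 it was lower, beside 12.3% and 10.7% of all probe sets. An unadjusted p under 0.05 was held by 14 members, and by 7681 of all 22746 probe sets. The median was 0.10 over the members and 0.01 over all probe sets. UGT76E12 (-4.34, adjusted p = 2.03e-08), UGT85A4 (1.87, adjusted p = 3.68e-05), UGT85A3 (-1.31, adjusted p = 0.000346) and UGT73C7 (1.36, adjusted p = 0.00871) kept their calls in each of 12 fits without 1 array. UGT84A3 (-1.78, adjusted p = 0.0135) lost its call without EtOH leaf array 3 (-1.34). UGT85A5 (-1.24, adjusted p = 0.0132) lost it without that array (-0.84) or ABA guard cell array 1 (-1.04). UGT85A2 (-1.13), UGT76C2 (0.88), UGT80B1 (0.68) and UGT74F1 (0.48) each lost their call in 7 or 8 of the 12 fits, with values of -1.13 to -0.93, 0.68 to 0.92, 0.48 to 0.68 and 0.34 to 0.49. All arrays of UGT74F1 lay below every array median and were not shown to be above background. With median centring the split was 2 higher and 7 lower, beside 8.98% and 15.2% of all probe sets, whose median moved to -0.19. UGT71B6 had a difference of 0.89 (95% interval 0.01 to 1.76, adjusted p = 0.144), which was not called with all arrays and was called without EtOH leaf array 1 (1.22, adjusted p = 0.0422).

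**Figure D4:**
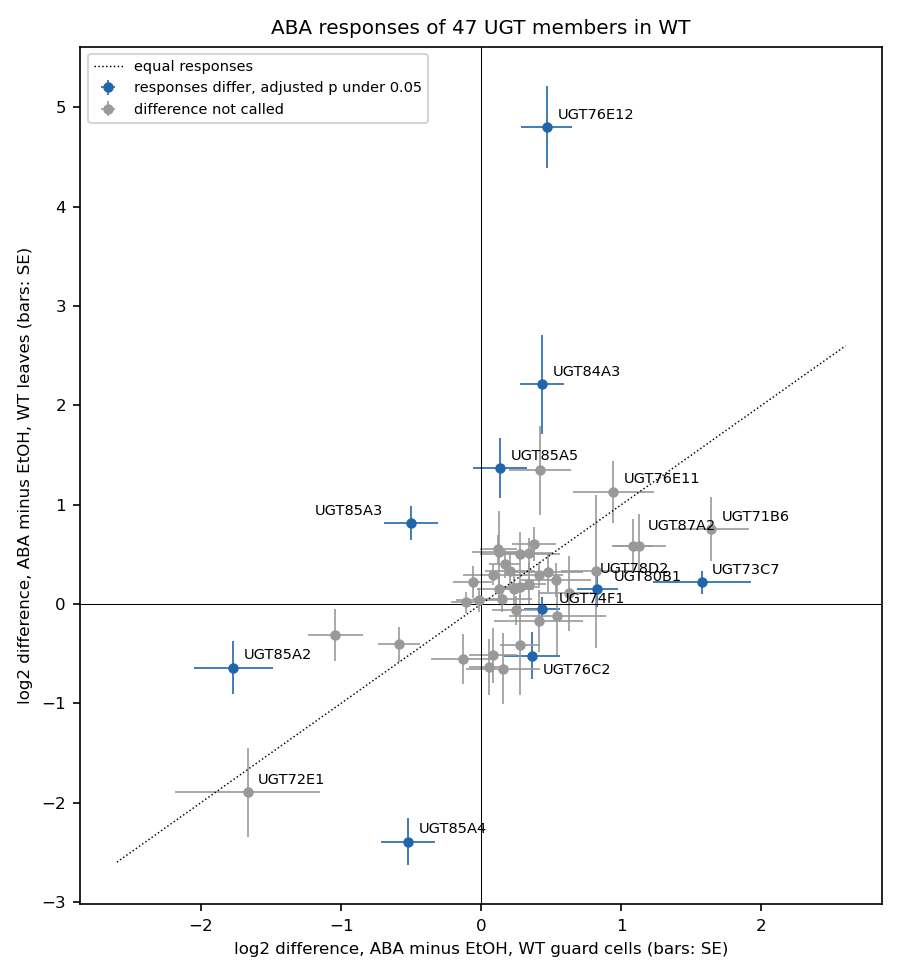
ABA response in WT leaves (vertical axis) against WT guard cells (horizontal axis) for the 47 members, in log2 units with SE bars; blue marks members whose responses differ with an adjusted p under 0.05 and the dotted line marks equal responses. UGT76E12 and UGT85A4 lie far from the line on the leaf axis, and UGT71B6 and UGT73C7 lie furthest to the right.

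Many members sit beside a relative on the chromosome. With at most 2 other protein-coding genes between members, 31 of the 47 fell into 13 neighbour groups, 9 of 2 members, 3 of 3 and 1 of 4. The other 16 had no member that near, but UGT genes that are not members were left out of this grouping. UGT73B1, for example, lies beside UGT73B2 and UGT73B3. It was not called between WT guard cells and leaves with EtOH (0.57), while their shared probe set was called higher. Not all neighbours shared calls, and members that are not neighbours were not compared in this way. Between WT guard cells and leaves with EtOH, 2 groups had every member called the same way, the pair UGT73B5 and UGT73B4 and the pair UGT73D1 and UGT73C7. Another 2 groups held members called in both directions, UGT85A7, UGT85A2, UGT85A5 and UGT85A3 in one and UGT71B1, UGT71B6 and UGT71B8 in the other. The other 9 groups had either no call (4) or mixed called and uncalled members without opposing directions. With ABA in WT guard cells no group had all its members called, and in WT leaves 1 did, the pair UGT76E12 and UGT76E11. In the group of 4, WT guard cells held a fall of UGT85A2 with no call for the rest, and WT leaves held rises of UGT85A7, UGT85A5 and UGT85A3 with no call for UGT85A2.

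**Figure D5:**
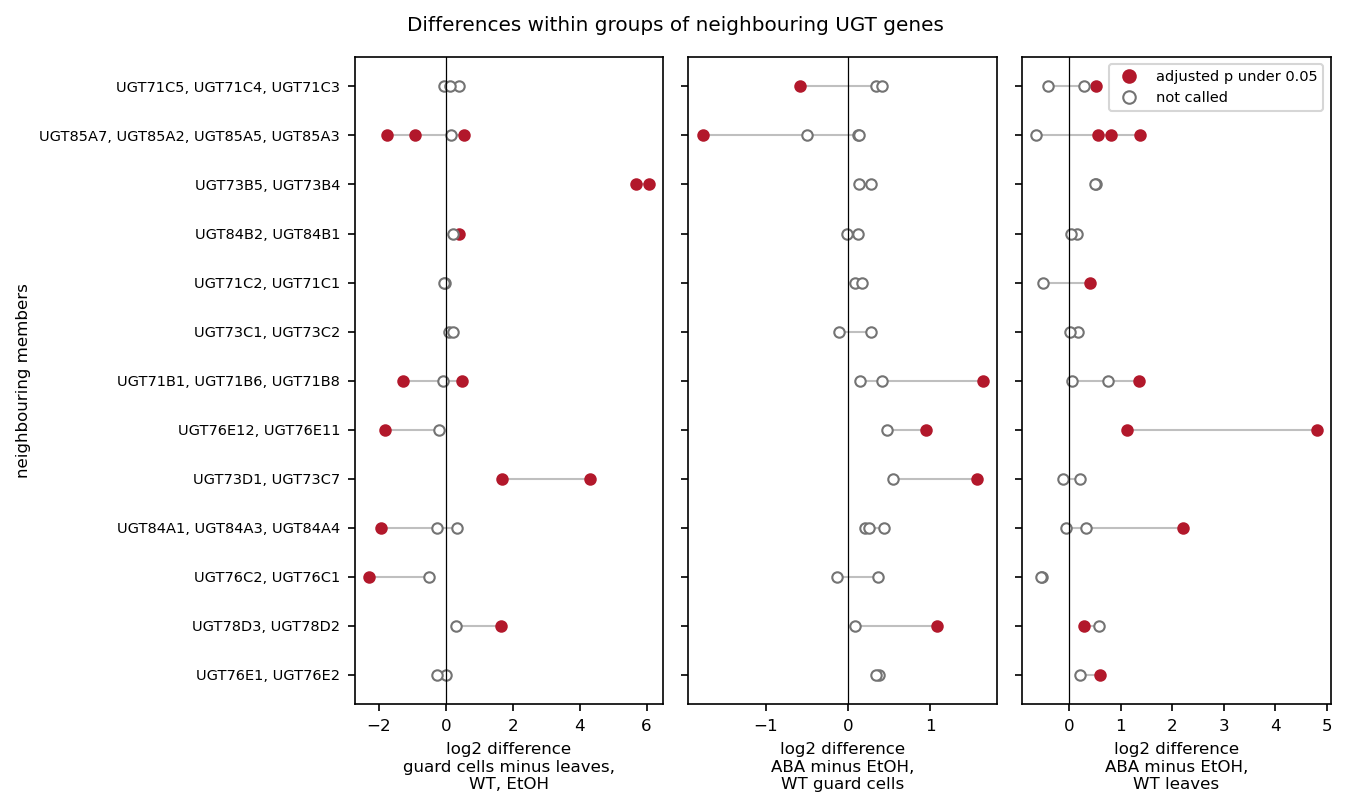
Log2 differences of the members of each of the 13 neighbour groups (rows) for guard cells minus leaves with EtOH, ABA minus EtOH in guard cells and ABA minus EtOH in leaves, all in WT; filled red points have an adjusted p under 0.05. Lines join the members of a group, and the group of UGT85A7, UGT85A2, UGT85A5 and UGT85A3 spreads to both sides of 0 in every panel.

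The comparison of the mutants with WT asked whether loss of a G protein subunit changes the level of these genes. No member was called by limma in any of the 12 comparisons. In guard cells with ABA, 3, 4 and 5 members had an unadjusted p under 0.05 in agb1, gpa1 and the double mutant. Of all 22746 probe sets, 1218, 1788 and 1810 had such a p, and 0.00879%, 0.00879% and 0.0132% were called. In guard cells with EtOH the members numbered 3, 8 and 5, beside 795, 1630 and 1405 probe sets, with 0.0308%, 0.0176% and 0.0484% called. In leaves with ABA they numbered 5, 4 and 2, beside 2662, 4638 and 1465 probe sets, with 0.0352%, 0.611% and 0.0176% called. In leaves with EtOH they numbered 1, 3 and 1, beside 1585, 2681 and 5302 probe sets, with 0%, 0.101% and 6.13% called. In all, 44 of 564 values had an unadjusted p under 0.05. The 95% intervals, which are not adjusted, reached a median of 0.40 to either side of the difference in guard cells and 0.45 in leaves. Smaller differences would mostly not have been told from 0. Calls were stricter, being adjusted over 22746 probe sets, and differences well above these sizes also went uncalled. UGT72E1 in agb1 leaves with ABA, at -1.55, had a limma adjusted p of 0.242. The comparisons of a sample type and treatment share their WT arrays.

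UGT71B6 had -0.33, -0.20 and -0.53 in guard cells with ABA in agb1, gpa1 and the double mutant, and -0.23, -0.47 and -0.31 with EtOH. In leaves it had 0.05, 0.55 and 0.34 with ABA and 0.15, 0.57 and 0.35 with EtOH. UGT73B5 had -0.32, -0.19 and -0.15 in guard cells with ABA and -0.39, -0.54 and -0.46 with EtOH. In leaves UGT73B5 had 0.52, 0.79 and 0.15 with ABA and 0.17, 0.52 and -0.18 with EtOH. None of these values was called.

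UGT73C7 and UGT73D1 were picked out after their values were seen. In guard cells with ABA, UGT73C7 stood at 6.26, 5.36 and 5.74 in agb1, at 5.68, 6.34 and 6.78 in gpa1 and at 5.26, 5.87 and 6.60 in the double mutant, against 6.62, 7.73 and 7.56 in WT. Here gpa1 overlapped WT, and the differences of -1.52, -1.04 and -1.39 were not called (adjusted p = 0.559, 0.514 and 0.391). With EtOH it stood at 4.60, 4.53 and 4.62 in agb1, at 4.35, 4.76 and 5.07 in gpa1 and at 4.61, 4.74 and 4.52 in the double mutant, against 5.48, 5.41 and 6.29 in WT. No mutant array reached the lowest WT array, but the differences of -1.15, -1.0 and -1.11 were again not called (adjusted p = 0.92, 0.542 and 0.453). Groups without overlap were not particular to this gene. In guard cells of agb1, gpa1 and the double mutant, 6, 10 and 9 of the 47 members had none with EtOH, and 7, 10 and 7 with ABA. The share over all probe sets was not counted. UGT73D1 with ABA stood at 9.04, 8.01 and 8.61 in agb1, at 8.55, 9.45 and 9.61 in gpa1 and at 8.66, 8.79 and 8.70 in the double mutant, against 10.01, 9.38 and 10.04 in WT. Only gpa1 overlapped WT, and the differences of -1.26, -0.61 and -1.09 were not called (adjusted p = 0.703, 0.689 and 0.444). UGT73D1 with EtOH stood at 8.24, 7.61 and 8.55 in agb1, at 7.81, 8.49 and 8.60 in gpa1 and at 8.06, 7.98 and 7.62 in the double mutant, against 9.36, 8.55 and 9.90 in WT. The agb1 and gpa1 arrays overlapped WT at its lowest array, and the differences of -1.13, -0.97 and -1.38 were not called (adjusted p = 0.92, 0.551 and 0.231). Array mesophyll marker means, between 9.67 and 10.13 in mutant and between 8.97 and 10.02 in WT guard cells with EtOH, overlapped, and their part was not tested.

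In leaves the lowest adjusted p of a member was 0.0894, for the cytokinin enzyme UGT76C1 in gpa1 with ABA (0.83). The largest difference in size, -1.55, belonged to UGT72E1 in agb1 leaves with ABA (adjusted p = 0.242), where it stood at 6.88, 4.85 and 5.70 in agb1 and at 7.53, 7.56 and 6.99 in WT. The glucosinolate enzyme UGT74B1 had -1.32 in leaves of the double mutant with EtOH (adjusted p = 0.116). Without array 2 of that mutant group UGT74B1 (-1.78, adjusted p = 0.0399) and UGT85A2 (-0.82, adjusted p = 0.026) were called. Whether the ABA response differs by genotype was tested by an F test in each sample type. No member was called in guard cells or leaves, beside 0% of all probe sets in both. At an unadjusted p under 0.05 there were 2 members in guard cells and 1 in leaves, and 267 and 2502 of all probe sets.

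Other genes of conjugation and release were read from lists. Of 14 measured glutathione S-transferases, enzymes that join glutathione to foreign compounds, 5 were higher and 3 lower in WT guard cells than in WT leaves with EtOH, beside 20% and 22.2% of all probe sets. GSTU25 was higher by 5.13 (SE 0.467, adjusted p = 1.87e-11) and averaged 8.65 ± 0.54 in WT guard cells and 3.52 ± 0.21 in WT leaves (SD, n = 3 each). Its WT leaf arrays lay below every array median, so this difference may be understated in size. GSTU26 was higher by 3.36 and GSTU16 lower by a log2 difference of -3.49. With ABA, 2 of the 14 rose in WT guard cells (GSTU18, 1.29, and GSTU26, 0.90) and none fell, beside 8.55% and 11.6% of all probe sets. In WT leaves 4 rose and 1 fell, beside 16.9% and 21.8%.

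Of 20 measured beta-glucosidases, a family whose members include enzymes that release ABA from its glucose ester, 1 was higher and 3 were lower in WT guard cells, beside 20% and 22.2% of all probe sets. BGLU33, listed among the genes of ABA release, averaged 3.67 ± 0.08 in WT guard cells and 7.65 ± 0.38 in WT leaves, a log2 difference of -3.98 (adjusted p = 4.51e-11). Its WT guard cell arrays lay below every array median, so this difference may be understated in size. With ABA none of the 20 rose in WT guard cells and 3 fell, beside 8.55% and 11.6% of all probe sets. In WT leaves 4 rose and 2 fell, beside 16.9% and 21.8%. BGLU33 fell in WT leaves by 2.44 (adjusted p = 0.000586). It was the only measured gene of 19 listed for ABA synthesis, breakdown and transport.

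Among UGT genes under another symbol or on a shared probe set, GT72B1, known for glucosylating chlorinated pollutants, was higher in WT guard cells by 2.52 and rose with ABA in WT leaves by 2.68. The probe set shared by UGT71D1 and AT2G29710 stood at 6.84, 7.43 and 8.00 in WT guard cells with ABA, against 3.90, 3.71 and 4.74 with EtOH. It rose by 3.34, 3.26 and 3.80 in agb1, gpa1 and the double mutant and by 3.31 in WT (SE 0.402, adjusted p = 4.75e-06), and was not called in leaves of any genotype. Its WT guard cell arrays with EtOH lay below every array median, so the WT rise may be understated in size. The probe set shared by UGT89B1 and AT1G73885 rose by 1.42 in WT guard cells and 0.88 in WT leaves. Which gene of each shared probe set carried the signal cannot be told apart on this array.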

How the data were processed

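RNA of guard cells and leaves was read on 48 arrays, 3 per group. The deposited values are log2 levels per probe set (22810); per the submitters' processing notes they were made with RMA and the affy package, whose versions are not given in the sources used here, and whether all arrays were normalised together is not stated. From them, 64 control probe sets were left out, and limma 3.58.1 in R 4.3.3 was fitted to group means with empirical Bayes variances, on the 24 arrays of a sample type or, between sample types, on all 48. The 13513 probe sets tied to 1 gene were named from the platform's annotation, 503 had several genes and 8730 none listed, and locus names and neighbours came from a RefSeq table. Members and lists were chosen with earlier results of these data known. Full values were given for at most 10 called members per main comparison, the largest first, and for UGT71B6 and UGT73B5 always. The fits were tested on simulated data.

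Same-numbered ABA and EtOH arrays deviated together in guard cells of every genotype (lowest correlations: agb1 0.39, gpa1 0.33, agb1 gpa1 0.20, WT 0.35) and in agb1 leaves (0.52), so the replicate number was taken to pair them there. Alternatives were median centring, a filter on dim probe sets, only the compared arrays, the replicate block, and leaving out each array. The number of arrays limits the precision.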

Additional observations from a re-analysis of the deposited data

Results flagged for a closer look

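In 10 members the WT response to ABA differed between guard cells and leaves by a test of that difference (limma, adjusted p under 0.05 over all probe sets). The guard cell response minus the leaf response was -4.34 for UGT76E12, -1.78 for UGT84A3, -1.31 for UGT85A3, -1.24 for UGT85A5 and -1.13 for UGT85A2. It was 0.48 for UGT74F1, 0.68 for UGT80B1, 0.88 for UGT76C2, 1.36 for UGT73C7 and 1.87 for UGT85A4. UGT76E12 and UGT85A4 moved mainly in leaves, at 4.80 and -2.39, while UGT73C7 moved mainly in guard cells, at 1.57. The calls of UGT85A2, UGT76C2, UGT80B1 and UGT74F1 were each lost in most fits without 1 array, and those of UGT84A3 and UGT85A5 in fewer. UGT76C2 was called in neither sample type by itself, at 0.36 in WT guard cells and -0.52 in WT leaves. UGT74F1 lay below every array median in all groups and was not shown to be above background. The groups hold 3 arrays each, so no array was tested as an outlier.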

How the results depend on the processing

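The filter on dim probe sets kept the direction and the side of the threshold for every result on a named member it could be run on, but moved the median over the members in 11 of 26 comparisons. Median centring moved it in 4. In WT with EtOH the median between the sample types was -0.06, -0.53 with the filter and 0.15 with centring. The replicate block changed 1 gene result and no count by over 1.5 times, and the block within each genotype, chosen after seeing the data, changed 4. For ABA in agb1 guard cells the count of called members was 11 and 7 to 10 without 1 array. For ABA in WT leaves it was 13 and 26 with median centring. For ABA in leaves of the double mutant it was 9 and 5 with only the compared arrays. For the difference between guard cell and leaf responses it was 10, 6 with only the compared arrays and 6 to 10 without 1 array. For the double mutant against WT in leaves with EtOH it was 0 and 0 to 2. With median centring that contrast had 2.57% of all probe sets higher and 3.20% lower.

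The only reversed directions belonged to UGT71B6 and UGT73B5 where they were not called. Directions were followed for called members and for UGT71B6 and UGT73B5, so reversals of other uncalled results are not covered. Median centring gave 0.12 for UGT71B6 in guard cells against leaves (WT, EtOH) and -0.013 in agb1 against WT leaves with ABA. Without 1 array, UGT71B6 ran from -0.42 to 0.14 in guard cells against leaves, from -0.45 to 0.16 in agb1 against WT guard cells with EtOH and from -0.18 to 0.38 in agb1 against WT leaves with EtOH. With ABA in leaves it ran from -0.36 to 0.32 in agb1 and from -0.061 to 0.55 in the double mutant. UGT73B5 ran from -0.042 to 0.32 for ABA in WT guard cells and from -0.27 to 0.011 in the double mutant against WT in guard cells with ABA. Against WT leaves with EtOH it ran from -0.14 to 0.35 in agb1 and from -0.68 to 0.16 in the double mutant, and with ABA from -0.11 to 0.38 in the double mutant. Among the results without 1 array of the called members described and of UGT71B6 and UGT73B5, 1036 were unchanged in call and direction, 100 lost a call and 5 gained one. UGT74B1 and UGT85A2, not called in double mutant leaves with EtOH, gained a call there too. With only the compared arrays 20 lost a call and 2 gained one, and the cause was not tested. The replicate block left the other calls as they were, with UGT73B5 in gpa1 guard cells at 0.48 (adjusted p = 0.0399), and within genotypes UGT71C4 in gpa1 leaves, where the numbers did not pair the arrays, had 0.53 (adjusted p = 0.062). An alternative probe set per gene could not be tried, since each member has 1.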
